A study of Mus musculus with 158 samples.

Results

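Vgll4 and Fat1 were followed in a pooled knockdown screen through the 7 short hairpin RNAs (shRNAs) whose target was listed as either gene, out of 1000 targeting hairpins against 285 genes. Vgll4 had 4 hairpins, TRCN0000173136 and TRCN0000175905 in pool 9 and TRCN0000250410 and TRCN0000250411 in pool 17. Fat1 had 3, with TRCN0000094847 in pool 5, TRCN0000094848 in pool 6 and TRCN0000094846 in pool 7. Every hairpin was compared with the other targeting hairpins of its own pool, 52 hairpins in pools 5, 6, 7 and 9 and 54 in pool 17. All 7 passed the read filter in all 3 comparisons. The files pair Vgll4 with transcript NM_177683, which the RefSeq gene table lists for mouse Vgll4. They pair Fat1 with NM_010179, which that table does not list, so Fat1 was matched by symbol. Hairpin sequences were not used here.

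The Hippo pathway is a chain of kinases, MST and LATS, that holds back the coactivators YAP and TAZ, which otherwise join TEAD transcription factors and turn on genes of growth and survival. VGLL4 binds TEAD factors through its TDU motifs, competes with YAP for them and is known as a brake on this output. FAT1 is a giant atypical cadherin at the cell surface that is known to act upstream of the kinases and is often mutated in carcinomas. YAP activity is known to promote growth of pancreatic ductal adenocarcinoma. A hairpin that becomes more frequent marks cells whose share of the pool rose, and why a share rose was not tested. Knockdown itself was not measured in these files.

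The cells were PDA530 Met, a mouse pancreatic adenocarcinoma line from a liver metastasis, so every value describes a single line. Per the labels' protocols, virus of a pool was added at a multiplicity of infection of 0.3 and the cells were kept in puromycin at 3 µg/ml for 4 days, treatments that all groups share. Day 0 was a pellet of these cells, culture was growth in vitro for 28 days, and lungs were the lung tumours of mice injected in the tail vein, taken after 28 days with the tumours of a mouse combined. The labels give neither age nor strain of the mice. Per the protocol, 3 mice were injected per pool and cultures were kept in triplicate. Pools 5, 6, 7 and 17 had 3 libraries in each arm. Each culture library held a mixture of 2 pools, 4/5, 6/7 or 16/17 for these, while day 0 and lung libraries held 1 pool. The Fat1 hairpins of pools 6 and 7 were therefore read from the same 3 culture libraries. Pool 9 had 3 day 0 libraries, 2 lung libraries, lettered A and C, and 6 culture libraries in 2 mixtures, shared with pool 8 and with pool 10. The 2 mixtures use the same letters A, B and C, so libraries of a letter were summed and counted as 1 of 3 replicates. Nothing in the labels says that day 0 libraries of a pool came from separate infections, so the spread between them may be technical.

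Levels are given in CPM, read counts relative to the total of the pool's own targeting hairpins in the library, scaled between libraries by TMM factors, which assume that most hairpins keep their level. Over the 5 pools, libraries held 5530029 to 9787379 reads at day 0, 5601604 to 9321062 in culture and 58189 to 8785515 in lungs. The shallow lung libraries were 6A with 58189 reads and 6B with 358742. In lung library 6C, 5345352 of 7185302 reads came from control hairpins, and the pool's own targeting reads were 25.5%, against 69.7% to 70.6% in the other lung and day 0 libraries of pool 6. Reads of pools other than those a library was labelled with made up 18.75% of lung library 17A, 15.3% of culture library 16/17A and 3.16% of lung library 17B, and at most 0.9746% of any other library of these pools. Changes are log2 differences of CPM + 1, tested with limma. A hairpin was called when its p, adjusted by the Benjamini-Hochberg method across every pool, was under 0.05. Without TMM factors the median change of all hairpins moved from -0.13 to -0.73 in lungs against day 0 and from -0.15 to -0.64 in culture against day 0. Higher changes then made up 24.4% of calls in lungs in place of 43.5%, and 26.9% in culture in place of 44.8%. Those shares were 30.5% and 20.7% with the deposited values. Scaled on the control hairpins, the median change in culture was -0.99 and 16.3% of calls were higher, while in lungs against day 0 the share was 45.8%. With DESeq2 size factors the shares were 53.3% in lungs and 49.9% in culture.

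In culture, 3 of the 4 Vgll4 hairpins rose from day 0, by 2.15-fold to 6.23-fold, and none fell by the test. Of all 945 hairpins tested in this comparison, 61.6% were called, 27.6% higher and 34.0% lower. The median change of the 4 Vgll4 hairpins was 1.69, against -0.15 over all hairpins. Of the 3 that rose, 2 were read from the same libraries of pool 9 and 1 from those of pool 17.

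TRCN0000175905 was an ordinary member of pool 9 at the start, with 7112, 7598 and 5940 CPM at day 0 and rank 32 to 35 of 52 hairpins. In culture it reached 30465, 33421 and 35033 CPM, and rank 10 to 12. All cultures lay above all day 0 libraries. The change was 2.27 on the log2 scale (SE 0.12), a 4.81-fold rise, with a limma Benjamini-Hochberg adjusted p of 5.39e-13. The variance prior of pool 9 weighed 16.5 degrees of freedom here, so this small p rests mostly on the pool's common spread. Without trend and robust estimation the limma adjusted p was 7.28e-05. Only 1 of the 52 hairpins of the pool rose more.

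TRCN0000173136, the other Vgll4 hairpin of pool 9, began higher, at 21896, 21037 and 18895 CPM, and had 44829, 45071 and 43112 CPM in culture. The groups did not overlap. Before summing, the 6 culture libraries ran from 38552 to 53872 CPM, a wider spread than between day 0 libraries. The rise was 1.11 on the log2 scale (SE 0.07, limma Benjamini-Hochberg adjusted p = 5.83e-11), the 11th largest of the pool's 52. Without trend and robust estimation the limma adjusted p was 0.000209. In pool 9, 38.5% of hairpins were called higher in culture. Scaled on the control hairpins, the rise of TRCN0000173136 was 0.22 (limma adjusted p = 0.0237) and that of TRCN0000175905 was 1.38.

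The cultures of pool 9 were sequenced in 2 lanes, and both gave these rises. With the libraries mixed with pool 10, from the lane of day 0, the changes were 2.23 for TRCN0000175905 and 1.27 for TRCN0000173136. With those mixed with pool 8, from the other lane, they were 2.41 and 1.13. Across the pool's hairpins, deviations from the mixture mean correlated at 0.22 to 0.44 between libraries of the same letter and at -0.33 to 0.06 between different letters. Whether a letter marks the same culture in both mixtures is not stated in the labels.

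In pool 17, TRCN0000250410 made the largest rise of that pool. It had 5863, 5496 and 5969 CPM at day 0, rank 30 of 54 in each, and 30841, 34945 and 43157 CPM in culture. Every culture lay above every day 0 library. The change was 2.64 on the log2 scale (SE 0.19), or 6.23-fold, with a limma Benjamini-Hochberg adjusted p of 2.68e-08. Without trend and robust estimation the limma adjusted p was 0.000123. In pool 17, 22.2% of hairpins were called higher. Without culture library 16/17A, which held reads of other pools, the change was 2.75. Scaled on the control hairpins it was 1.51, still called (limma adjusted p = 5.48e-07).

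TRCN0000250411, the other Vgll4 hairpin of pool 17, did not follow. It had 21211, 26699 and 20393 CPM at day 0 and 29207, 18721 and 9306 CPM in culture, so culture library A lay above every day 0 library and the other cultures below them. The change was -0.39 on the log2 scale (95% interval -1.10 to 0.31, limma Benjamini-Hochberg adjusted p = 0.311). Without culture library A it was called lower, at -0.78 (limma adjusted p = 0.0131), and without culture library C it was 0.049. It was also called lower without TMM factors (limma adjusted p = 0.00125), with the deposited values, at -1.34, and with the control total, at -1.53.

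The ratio of 2 hairpins within a library needs no scaling. In pool 9, the reads of TRCN0000175905 were 0.325, 0.361 and 0.314 of those of TRCN0000173136 at day 0 and 0.680, 0.742 and 0.813 in culture. The ratio rose by 1.16 on the log2 scale, with no overlap (exact permutation test, two-sided p = 0.1, the smallest that 3 against 3 libraries can give). In pool 17, the reads of TRCN0000250410 were 0.276, 0.206 and 0.293 of those of TRCN0000250411 at day 0 and 1.06, 1.87 and 4.64 times as many in culture. That ratio rose by 3.03 on the log2 scale, again with no overlap and an exact permutation p of 0.1. In these libraries the 2 hairpins of each pair moved by different amounts. With 3 against 3 libraries this test cannot give a p under 0.05, and ratios of other pairs were not examined. Of 183 pairs of hairpins against the same gene in the same pool, 6.56% had both called higher in culture, 10.4% both lower and 16.4% called in opposite directions. The pool 9 pair of Vgll4 was 1 of the 12 with both higher.

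In lung tumours, 1 of the 4 Vgll4 hairpins rose by the test from day 0 and none fell. Of 891 hairpins tested, 34.3% were called, 14.9% higher and 19.4% lower. The 4 changes were all above 0 with TMM factors and had a median of 0.98, against -0.13 over all hairpins. Without TMM factors, with the deposited values and with the control total, those of TRCN0000175905 and TRCN0000250411 were below 0.

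TRCN0000173136 had 38522 CPM in lung A and 75607 CPM in lung C of pool 9, both above its highest day 0 value of 21896 CPM. The rise was 1.39 on the log2 scale (SE 0.33), or 2.62-fold, with a limma Benjamini-Hochberg adjusted p of 0.0372 and an edgeR adjusted p of 0.0328. The rise was 0.69 without TMM factors, 0.77 with the deposited values and 0.85 with the control total, each still called. With the replicate letter as a block the limma adjusted p was 0.0805 for a change of 1.41, and without trend and robust estimation it was 0.053. Without day 0 replicate A, B or C the rise was 1.44, 1.41 and 1.33, with limma adjusted p-values of 0.0822, 0.089 and 0.115. As a share of the pool's reads the hairpin made up 4.15% and 4.46% of the lungs, against 2.48% to 2.81% at day 0. The median hairpin of pool 9 changed by -0.63 in lungs, and relative to it the rise was 2.02.

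TRCN0000175905 stood at 8945 and 8883 CPM in the lungs, just above its day 0 levels of 5940 to 7598 CPM. The change was 0.38 on the log2 scale (95% interval -0.15 to 0.92, limma Benjamini-Hochberg adjusted p = 0.218). As a share of the pool's reads it was 0.963% in lung A and 0.524% in lung C, against 0.781% to 0.983% at day 0. Without TMM factors the change was -0.32. Without lung C, which leaves 1 lung library assumed to vary like the others, it was called, at 0.65 (limma adjusted p = 1.49e-06).

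The lungs of pool 17 differed widely among mice for TRCN0000250410, with 5947, 22038 and 32627 CPM in lungs A, B and C. Lung A lay within the day 0 range of 5496 to 5969 CPM and the other lungs were well above it. The change was 1.49 on the log2 scale (SE 0.64, limma Benjamini-Hochberg adjusted p = 0.119). Lung A is the library with 18.75% of reads from other pools, whose part in its value was not tested. Without it the change was 2.22 (limma adjusted p = 0.00411). With all lungs it was 0.83 without TMM factors, 0.79 with the deposited values and 0.80 with the control total, none of them called. TRCN0000250411 had 23673, 31846 and 49030 CPM in the same lungs, also lowest in lung A, and changed by 0.56 (95% interval -0.28 to 1.40, limma adjusted p = 0.26).

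The direct comparison of lungs with culture asks where the 2 settings differ. Of 889 hairpins, 23.6% were called, 10.8% higher and 12.8% lower in lungs. With the control total, 83.9% of the calls were higher in lungs, against 45.7% with TMM factors and 62.6% with the deposited values. TRCN0000175905 was the Vgll4 hairpin that differed, 3.69-fold lower in lungs (log2 difference -1.88, SE 0.16, limma Benjamini-Hochberg adjusted p = 0.000468). The 95% interval was -2.27 to -1.50, and the 2 lungs lay below all 3 cultures. With the culture libraries of the day 0 lane alone the difference was -1.84 (limma adjusted p = 0.000634), and with those of the other lane -1.90 (0.000743).

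For TRCN0000173136 lungs and culture overlapped, with a difference of 0.28 (95% interval -0.58 to 1.15, limma Benjamini-Hochberg adjusted p = 0.6). Without lung A, which leaves 1 lung library with no spread of its own, the difference was 0.77 (limma adjusted p = 3.96e-06). In pool 17 the differences were -1.15 for TRCN0000250410 (95% interval -2.51 to 0.22, limma adjusted p = 0.207) and 0.95 for TRCN0000250411 (95% interval -0.22 to 2.13, limma adjusted p = 0.222). Without lung 17A and culture 16/17A, the latter was called, at 1.58 (limma adjusted p = 0.0298), and the former was -0.53. Lungs and culture were compared with the same day 0 libraries, so the 2 changes from day 0 are not independent.

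The within-library ratios moved too. TRCN0000175905 had 0.232 and 0.117 of the reads of TRCN0000173136 in lungs A and C of pool 9, below every day 0 and culture library. Against culture the ratio differed by -2.17 on the log2 scale, and against day 0 by -1.01, each with an exact permutation two-sided p of 0.2. The two-sided p was taken as 2 times the one-sided p, so 0.2 is the smallest that 2 against 3 libraries can give. In pool 17, the ratio of TRCN0000250410 to TRCN0000250411 was 0.251, 0.692 and 0.665 in lungs, all below the cultures, with a difference of -2.10 (exact permutation p = 0.1). Against day 0 that ratio overlapped, at 0.93 (exact permutation p = 0.3).

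Fat1 gave a single strong change in culture. Of its 3 hairpins, TRCN0000094848 rose and the others did not pass the test, against the 61.6% of all hairpins called there. The median change of the 3 was 0.88. Their starting levels differed widely, with a mean of 37209 ± 877 CPM for TRCN0000094848 at day 0, 1356 ± 194 for TRCN0000094847 and 349 ± 114 for TRCN0000094846 (SD, n = 3 each).

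TRCN0000094848 was the 6th most frequent hairpin of pool 6 at day 0, with 36872, 36551 and 38205 CPM. In culture it was the most frequent in every library, with 166264, 111312 and 150218 CPM, or 16.2%, 11.6% and 14.7% of the pool's targeting reads. No culture came near a day 0 value. The rise of 1.92 on the log2 scale (SE 0.14), or 3.78-fold, was the largest of the 51 hairpins tested in the pool, with a limma Benjamini-Hochberg adjusted p of 7.91e-08. Without trend and robust estimation the limma adjusted p was 0.000284. In pool 6, 37.3% of hairpins were called higher in culture. With the control total the rise was 0.91 and with the deposited values 1.19, both still called (limma adjusted p = 0.000353 and 9.06e-06).

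In the lungs of pool 6 the same hairpin had 24000, 20490 and 35996 CPM, all below the lowest day 0 value of 36551 CPM, with lung C close to it. The change was -0.51 on the log2 scale (95% interval -1.11 to 0.09, limma Benjamini-Hochberg adjusted p = 0.166). Lung A rested on 870 reads of the hairpin, and its share of 2.15% had a 95% Wilson interval of 2.01% to 2.29%. That interval covers counting error only, since the protocol names no molecular identifiers and PCR copies are not independent molecules. Without lung C the change was called, at -0.75 (limma adjusted p = 0.0156), and without TMM factors at -1.03 (0.0247). It was -1.73 with the deposited values (limma adjusted p = 0.0584) and -1.95 with the control total (0.119), neither called. The control total rests on the control reads, which were 5345352 of 7185302 in lung C. Without the shallow lungs 6A and 6B, which leaves 1 lung library, it was -0.048.

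Against culture, TRCN0000094848 was 5.40-fold lower in lungs (log2 difference -2.43, 95% interval -2.96 to -1.90, limma Benjamini-Hochberg adjusted p = 1.18e-09). Of the 51 hairpins of pool 6, 3 had a more negative difference, and the median difference of the pool was -0.21. Every lung lay below every culture. The variance prior of pool 6 weighed 42.5 degrees of freedom, so this small p rests mostly on the pool's common spread. With lung C as the only lung library the difference was -1.97, and without lung C it was -2.66 (limma adjusted p = 0.000122). The Fat1 hairpin and the Vgll4 hairpin TRCN0000175905 were the 2 of 7 called between lungs and culture, where 23.6% of all hairpins and 39.2% of those of pool 6 were called.

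The remaining Fat1 hairpins were rare and variable. TRCN0000094847 had 1324, 1564 and 1179 CPM at day 0, 636, 632 and 2799 CPM in culture and 878, 231 and 455 CPM in lungs of pool 5. The lungs lay below all day 0 libraries, while culture spanned them. The lung change was -1.57 on the log2 scale (SE 0.53), or 2.97-fold lower, with a limma Benjamini-Hochberg adjusted p of 0.036, and it was the 1 of 3 Fat1 hairpins called against day 0 in lungs. There 34.3% of all hairpins and 48.1% of those of pool 5 were called, 26.9% of pool 5 lower. With edgeR the adjusted p was 0.0628, and with DESeq2 size factors the change was -1.26 (limma adjusted p = 0.102). Without day 0 replicate A, B or C the change was -1.58, -1.46 and -1.67, with limma adjusted p-values of 0.1, 0.112 and 0.1. It was -1.09 without lung B (limma adjusted p = 0.0927) and -2.05 without lung A (0.00533).

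In culture TRCN0000094847 changed by -0.37 (95% interval -1.41 to 0.66, limma Benjamini-Hochberg adjusted p = 0.518). Without culture C, the high library, it was called lower, at -1.09 (limma adjusted p = 0.000179), as it was with the deposited values, at -1.74, and the control total, at -1.88. The SD of the 3 cultures was 1.24 on the log2 scale, the 3rd highest of the pool's 52 hairpins, against a median of 0.35. Lungs and culture differed by -1.20 (95% interval -3.00 to 0.60, limma adjusted p = 0.319), from -0.49 without culture C to -1.68 without lung A, none of them called.

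TRCN0000094846 ranked 48 to 50 of 52 in pool 7 at day 0, with 257, 312 and 477 CPM. It had 338, 919 and 773 CPM in culture and 208, 771 and 129 CPM in lungs, so all arms overlapped. Its changes were 0.88 in culture (95% interval -0.28 to 2.04, limma Benjamini-Hochberg adjusted p = 0.163) and -0.29 in lungs (95% interval -1.92 to 1.33, limma adjusted p = 0.771). Lungs and culture differed by -1.18 (95% interval -2.68 to 0.33, limma adjusted p = 0.259), from -0.63 without lung C to -1.92 without lung B, none of them called. Without culture A it was called higher in culture, at 1.43 (limma adjusted p = 0.00281).

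Counted over both genes, 4 of 7 hairpins were called higher in culture and none lower, 1 was called higher and 1 lower in lungs against day 0, and 2 were lower in lungs than in culture with none higher. Over all hairpins limma called 61.6%, 34.3% and 23.6% in either direction in these 3 comparisons, and the counts of 4, 2 and 2 of 7 lie near those shares. By direction, 27.6% of all hairpins were called higher in culture, which 4 of 7 exceeds. In lungs against day 0, 14.9% were called higher and 19.4% lower, beside 1 of 7 each. In lungs against culture 12.8% were called lower, which 2 of 7 exceeds. Whether these counts differ from the shares was not tested. The median changes of the 7 were 1.11, 0.38 and -1.18, against -0.15, -0.13 and -0.12 over all hairpins tested. Of the 6 calls that involve culture, all were also made by edgeR. In lungs against day 0, edgeR called 1 of 7, TRCN0000173136, against 32.2% of all hairpins. Over all hairpins edgeR called 60.3% in culture against day 0 and 24.1% in lungs against culture.

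Hairpins of other genes with the most similar profile over a pool's replicates are given as a description. For TRCN0000175905 these were hairpins against Yme1l1, a mitochondrial protease, with r = 0.97 over 8 libraries, and Dusp4, a phosphatase of MAP kinases, with r = 0.93 and 0.92. TRCN0000173136 was most like hairpins against Ptges3 (r = 0.94), the interferon-induced gene Rsad2 (0.93) and the chemokine gene Cxcl3 (0.93). TRCN0000250410 was most like hairpins against Lrrtm4 (r = 0.92 over 9 libraries), Cramp1l (0.82) and Nav3 (0.81). Among the hairpins most like the Fat1 hairpin TRCN0000094848 were those against the calcium release channel gene Ryr3 (r = 0.88 over 9 libraries) and Rrm1 (0.81), a subunit of ribonucleotide reductase. TRCN0000094847 was most like hairpins against Elac1 (0.78), Coch (0.68) and F8 (0.65). These profiles share libraries and the shift between arms, and between 50 and 52 hairpins were compared for each. The 2 Vgll4 hairpins of pool 9 had r = 0.53 with each other over 8 libraries, and those of pool 17 had r = -0.07 over 9.

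A list of 81 gene symbols of the Hippo pathway and its targets was searched, some of them synonyms of the same gene. Vgll4 and Fat1 were the 2 found among the screen's targets, so no hairpin against YAP, TEAD, MST or LATS genes was analysed here. Reads of all 7 hairpins also appeared in libraries of other pools. The hairpin found most often outside its pool was TRCN0000094848, with reads in 62 of 139 such libraries and a highest share of 988 ppm, here taken relative to all reads of the library. Its lowest share in a library of its own pool was 7793 ppm. The rare TRCN0000094846 reached 17.2 ppm outside its pool, from 1 read in lung library 6A, against a lowest share of 92.7 ppm in its own.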

How the data were processed

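Genomic DNA of 158 samples was read for hairpins, and 148 had values. BWA 0.5.9 is named in the submitters' processing notes. How the authors counted and normalised reads is not given in the sources used here. Per the file headers, each file holds a normalised signal per hairpin made by the authors. All 27241 deposited signal values (100%) were whole multiples of the smallest value of their library within 0.01, so reads were recovered by division, and a hairpin without a value was taken as 0 reads.

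Technical repeats were summed. Per pool, log2(CPM + 1) with TMM factors of edgeR 4.0.16 was fitted with limma 3.58.1 (R 4.3.3), with a variance trend and robust estimation, for hairpins with a mean of at least 10 reads. Adjustment (Benjamini-Hochberg) ran across every pool together. The fold changes on this scale understate changes of rare hairpins. edgeR's quasi-likelihood test and DESeq2 1.42.0 were alternatives on the recovered reads. Intervals cover 95%. limma's variance prior had no upper bound in pool 7 for lungs against culture. The steps were tested on simulated data, where the share of false calls was above the intended one in all 3 comparisons, so calls near the threshold are the least sure.

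All hairpins of both genes are named, and for each called hairpin the 3 most correlated hairpins of other genes in its pool, of which 1 is not reported here. Members, lists and tests were chosen with earlier results of these data known. Letters (A, B, C) were not used as pairs: every same-letter correlation of deviations was over 0.1 in 3 of 15 pools with 3 pairs or more for lungs against day 0, 5 of 17 for culture against day 0 and 1 of 15 for lungs against culture. Pools 7, 9 and 17 for culture against day 0, pool 7 for lungs against day 0 and pool 6 for lungs against culture were among these, so there the letters may pair libraries.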

Additional observations from a re-analysis of the deposited data

Results flagged for a closer look

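Among the 6 separate culture libraries of pool 9, TRCN0000175905 was low in library 9/10A, at 27391 CPM. On the log2 scale it stood apart from the other 5 by a gap of 0.742 of the range, above the limit of 0.625 for 6 values. Chance gives such a library in about 1 of 20 groups of independent values, and 2 hairpins were looked at. These libraries come from 2 mixtures that share letters and may not be independent, so that rate may not hold here. The change from day 0 differed between lungs and culture for Fat1 hairpin TRCN0000094848, by -2.43, and for Vgll4 hairpin TRCN0000175905, by -1.88, both in the limma test of the difference.

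With over 100 reads, 4 hairpins appeared in libraries of other pools after 28 days above their highest share in day 0 libraries of other pools, in ppm of all reads of the library. Lung library 7B held 988 ppm of the Fat1 hairpin TRCN0000094848 of pool 6, against at most 205 at day 0. Lung library 10C held 106 ppm of TRCN0000173136, against 23.5. Lung library 8A held 86.0 ppm of TRCN0000175905, against 39.4. Culture library 18/19A held 48.9 ppm of TRCN0000250410, against 8.49. For each of these 4 hairpins, 2 to 6 libraries after 28 days lay above its day 0 maximum. The maxima were taken over 81 or 84 libraries after 28 days and 55 at day 0, so the larger set had more chances of a high value. TRCN0000250411 went the other way, with at most 68.2 ppm after 28 days against 152 at day 0. The source of these reads was not tested.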

How the results depend on the processing

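The 6 calls in culture against day 0 and lungs against culture kept their direction and their side of the threshold in every alternative run, of which those that left out libraries or lanes of another arm or pool did not touch their own fit. The 2 calls in lungs against day 0 did not: 1 of 7 hairpins was called there with DESeq2 size factors, with edgeR, without trend and robust estimation, and with the replicate block, against 2. Leaving out 1 library at a time gave 1 to 3 calls in lungs against day 0, 4 to 5 in culture against day 0 and 2 to 3 in lungs against culture. The block changed no other call. No called change reversed. Of uncalled changes, in lungs against day 0 TRCN0000175905 was -0.32 without TMM factors, -0.24 with the deposited values and -0.16 with the control total, and TRCN0000250411 was -0.10, -0.14 and -0.13. TRCN0000094846 was 0.082 with edgeR, 0.26 with DESeq2, and -1.04 to 0.25 with 1 library left out. DESeq2 called TRCN0000175905, at 0.64, and TRCN0000250410, at 1.71, but not TRCN0000094847 (adjusted p = 0.0611). In culture against day 0, TRCN0000094846 was -0.032 with the control total, TRCN0000094847 was 0.11 with DESeq2 and -1.09 to 0.064 with 1 library left out, and TRCN0000250411 was 0.048 with DESeq2 and -0.78 to 0.049 with 1 left out. In lungs against culture, TRCN0000173136 was -0.42 with the deposited values and TRCN0000094847 was 0.26 with the control total. The cause of these reversals was not tested. The refits without lungs 10C and 16D, without lung 17A and culture 16/17A, and without lungs 6A and 6B were chosen after the values were seen. Counting error is widest for TRCN0000094846, with 486 reads in lung 7A and 693 in lung 7C, followed by 870 in culture A of pool 7 and 870 for TRCN0000094848 in lung 6A.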
